A study of Oreochromis niloticus with 6 samples.

Results

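Insulin, insulin-like growth factor (IGF) and growth hormone signalling in the liver is described here through 109 genes. They are among 26490 genes listed in the mRNA table of 6 tilapia liver libraries, of which 21043 had a value above 0 in any library. The members were taken by name: IGFs and their binding proteins, the receptors for insulin, IGF and growth hormone, the insulin receptor substrates and adaptors, the PI3K, AKT, FOXO, GSK3 and mTOR branches, the energy sensor AMPK and the SOCS inhibitors. Of the 109, 55 had at least 0.5 FPKM in 3 or more libraries and were tested, among 9204 such genes in the whole table, and 54 were not tested. FPKM, the deposited unit, counts sequenced fragments relative to transcript length and library total, so that levels of different genes can be set side by side. Of the tested members, 42 reached 0.5 FPKM in every library and 1, GHRHR, passed only through its HFD libraries. The names also took 5 genes with another function (igf2bp1, igf2bp2b, igf2bp3, TSC22D2 and tsc22d3), which are kept in the counts and described apart.

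Growth hormone from the pituitary binds its receptor on liver cells and, through the kinase JAK2 and STAT5, switches on IGF1, which the liver secretes and which binding proteins carry in the blood. Insulin and the IGFs bind related receptor kinases, which act through receptor substrates on PI3K and AKT. AKT restrains the FOXO transcription factors and the kinase GSK3 and releases mTOR, while SOCS proteins, themselves induced by cytokine and growth hormone signals, damp the receptors. In the fasted liver of mammals, FOXO1 raises genes of glucose release and IGFBP1.

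The high-fat diet (HFD) group holds 3 libraries from fish whose feed had 18.5% lipid, and the normal-fat diet (NFD) group 3 libraries from fish whose feed had 8% lipid. All fish were wild-type male juvenile Oreochromis niloticus of GIFT, a farmed strain of Nile tilapia bred for growth, and were fed to satiation for 56 days. The series concerns what a fat-rich feed does to liver lipid metabolism. Per the labels' protocols ribosomal RNA was removed and the 3 libraries of a diet are biological replicates made from mixed RNA of several fish. Whether each library is a pool of its own is not said, and if it is not, the p-values cover technical spread only.

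Summed over the mRNA table, FPKM came to 141024 to 170847 in HFD libraries and 142360 to 169081 in NFD libraries, and the depth in reads is unknown. Cell type markers were looked up by name, and listed names without a match are left out. The 9 liver markers found were uneven, with a summed level of 1749 to 2118 FPKM in HFD libraries and 2047 to 5936 in NFD libraries. Ambp was abundant in every library, at 771 to 848 FPKM in HFD libraries and 721 to 990 in NFD libraries, whereas f2 was at 0.154 to 0.841 in HFD libraries and 0.108 to 0.509 in NFD libraries. C3 was listed at 0 in HFD libraries 2 and 3 and NFD library 3, and fgb was at 0.958 to 1.18 FPKM in HFD libraries, against 3857, 0.835 and 3101 in NFD libraries 1, 2 and 3. For the exocrine pancreas, which in tilapia lies within the liver, 7 markers were found. They summed to 6353, 4391 and 17054 FPKM in HFD libraries 1, 2 and 3, and to 15780, 7519 and 3774 in NFD libraries 1, 2 and 3. In such bulk RNA, fewer cells of a type and less RNA per cell cannot be told apart.

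IGFBP1 and igf1 had the highest mean levels of the members, and neither differed between diets beyond its spread. IGFBP1 averaged 67.8 FPKM over the 6 libraries and igf1 52.2, with overlapping ranges, and both together made up 33.5%, 34.2% and 39.0% of the summed FPKM of all members in HFD libraries, against 41.6%, 40.9% and 29.8% in NFD libraries. They were followed by tsc22d3 at 32.5 FPKM, irs4a at 13.4, ghr at 12 and irs2a at 10.5. Another 7 tested members averaged 5 to 10 FPKM (igf2b, grb2b, ptena, foxo3b, socs5b, foxo1a and sesn1), 33 averaged 1 to 5 FPKM and 9 averaged less than 1. Tsc22d3, at 18.3 to 46.6 FPKM over the libraries, overlaps igf1, at 43.9 to 75.2, and IGFBP1, at 27.6 to 94.0. The libraries of irs2a, at 6.76 to 13.6 FPKM, overlap those of ptena, at 5.27 to 8.03. These ranges overlap over libraries, but the genes share the same libraries. IGFBP1 was above tsc22d3, and irs2a above ptena, in every library. Igf1 was above tsc22d3 except in NFD library 2, and the order of IGFBP1 and igf1 changed between libraries.

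**Figure D1:**
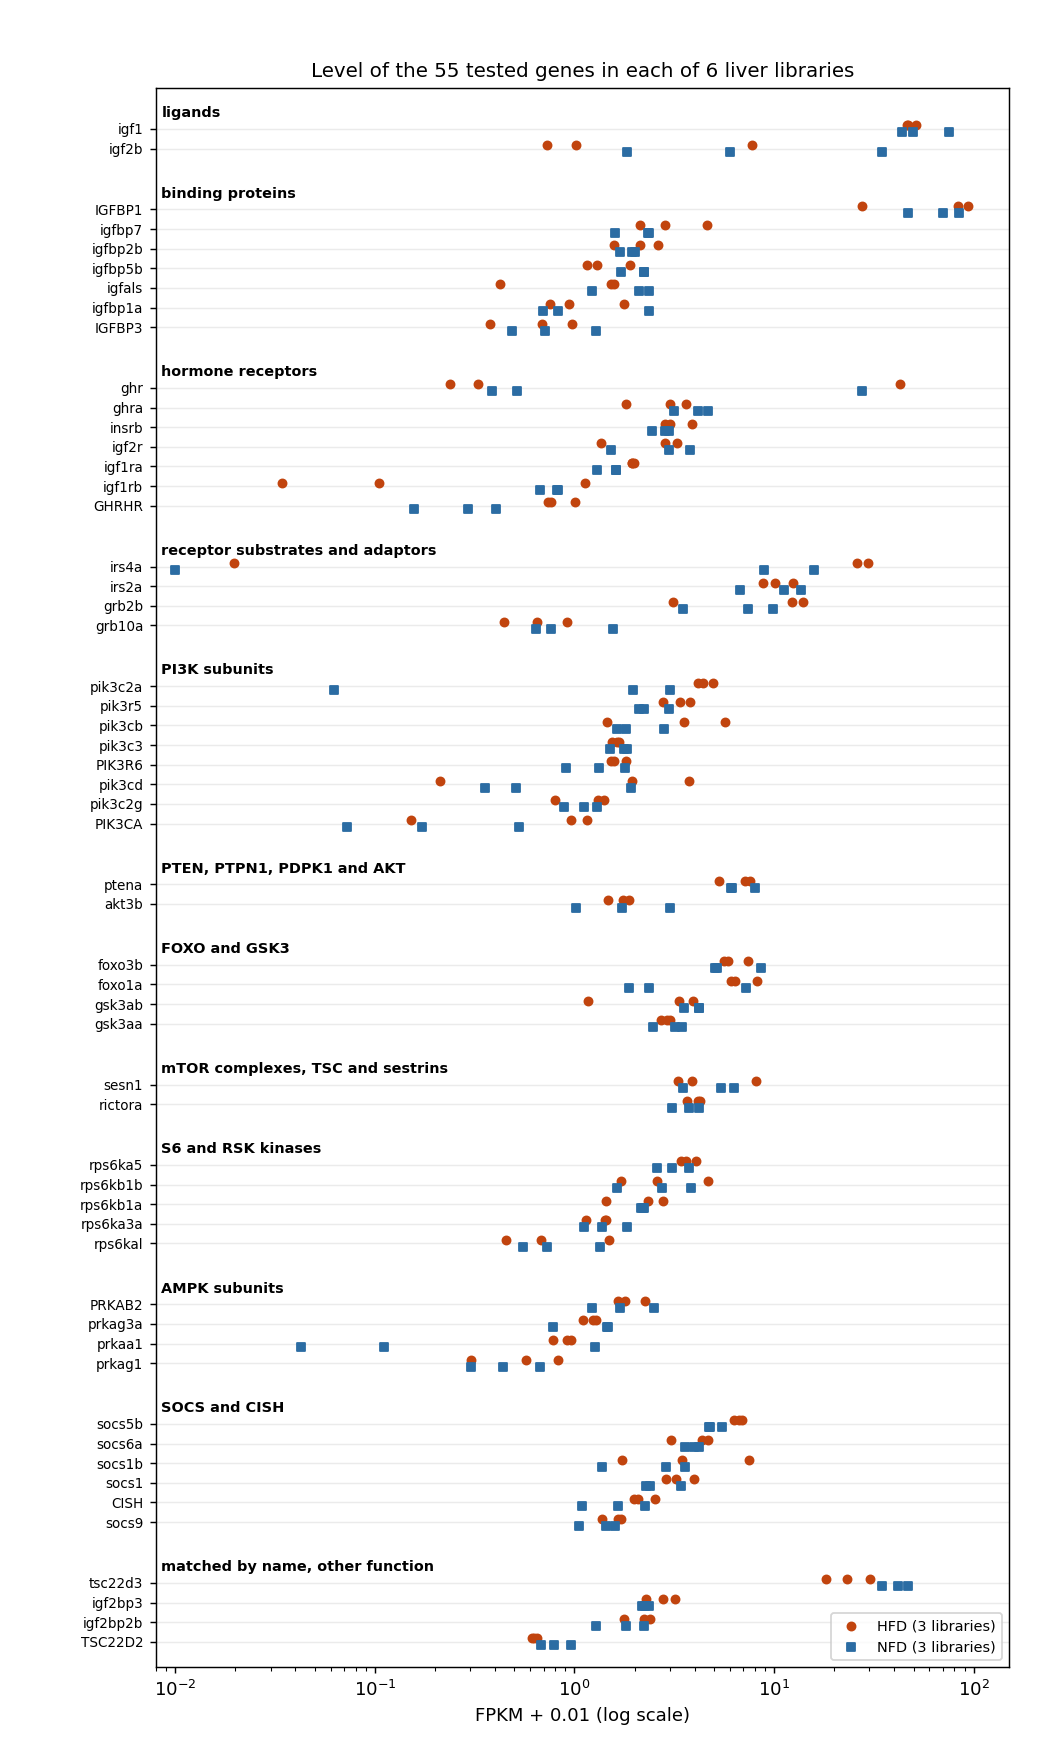
Level of each tested gene (rows, grouped by role) in 3 HFD (circles) and 3 NFD (squares) liver libraries, as FPKM + 0.01 on a log scale. IGFBP1 and igf1 stand at the right, most other genes lie between 1 and 10, and ghr, irs4a, igf1rb, pik3c2a and prkaa1 are split across libraries of one diet.

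No member differed between diets past the threshold. In the limma fit over all genes, 0 of 55 members and 0 of 9204 genes (0%) had an adjusted p under 0.05, and the smallest adjusted p among members was 0.708. Without adjustment 2 members had a p under 0.05, which is 3.64% of those tested against 6.02% of all tested genes: GHRHR was higher in HFD, as were 2.67% of all genes, and tsc22d3 was lower in HFD, as were 3.35%. With a library left out, this count of members was 0 without HFD replicate 1, 1 without HFD replicate 2 and 4 without HFD replicate 3 or NFD replicate 3, and 4 genes of the whole table, no member among them, passed the adjusted threshold without NFD replicate 2. HFD and NFD libraries were fully apart for 6 members, 10.9% against 11.6% of all genes; 4 were higher in HFD, 7.27% against 5.48% of all genes, and 2 were lower, 3.64% against 6.15% of all genes. The median log2 fold change, HFD over NFD and on the log2(FPKM + 0.5) scale used throughout, was 0.051 for members and 0.0031 for all genes, with 33 members higher and 22 lower in HFD. The median standard error of a member was 0.26 on that scale.

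**Figure D2:**
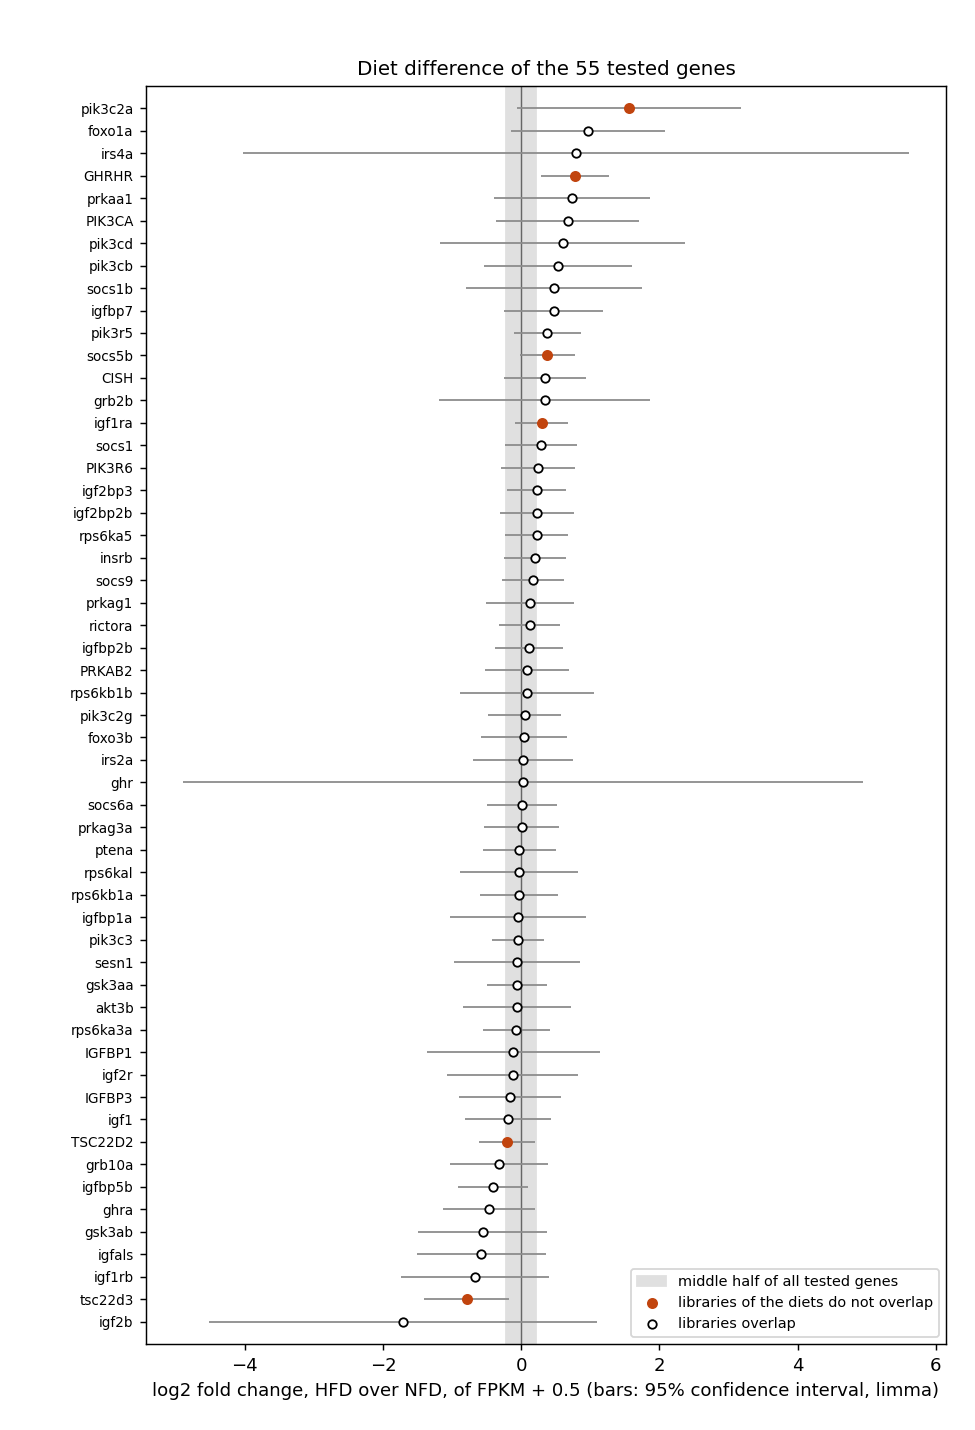
Log2 fold change, HFD over NFD, of FPKM + 0.5 for the 55 tested genes, ordered by size, with 95% confidence intervals from limma; filled points mark genes whose libraries do not overlap between diets and the grey band spans the middle 50% of all tested genes. Most points lie near 0, the intervals of GHRHR and tsc22d3 leave out 0 before adjustment, and those of ghr and irs4a reach beyond 4 on either side.

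The ligands had a steady and an unsteady member. Igf1 (MSTRG.14694), the main endocrine growth factor of the liver, was at 46.6, 51.4 and 46.3 FPKM in HFD libraries 1, 2 and 3, and at 75.2, 43.9 and 49.9 in NFD libraries 1, 2 and 3. The HFD libraries all lie inside the NFD range, and only NFD library 1 stands out. Its HFD mean was 48.1 ± 2.84 FPKM and its NFD mean 56.3 ± 16.6 (SD over 3 libraries, as for all means below). This is a log2 fold change of -0.19 ± 0.26 SE (limma adjusted p = 0.952) whose 95% interval runs from -0.81 to 0.43. Igf2b (MSTRG.3997), a second IGF that is best known as a fetal growth factor in mammals, was at 7.72, 1.01 and 0.715 FPKM in HFD libraries and at 34.6, 1.82 and 6.0 in NFD libraries. One library in each diet, numbered 1, was listed far above the others, and the diets overlap. Its log2 fold change of -1.71 ± 1.16 SE (limma adjusted p = 0.919) was -0.65 without NFD replicate 1. The other ligands taken by name, ghrh and ghrl, which encode hypothalamic and gut hormones, were listed at 0 in every library.

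Among the binding proteins IGFBP1 outweighed all others. IGFBP1 (MSTRG.851), which binds IGFs in the circulation and in mammals falls after feeding, was at 83.8, 27.6 and 94.0 FPKM in HFD libraries and at 70.1, 84.3 and 46.7 in NFD libraries. The lowest and the highest value were both in HFD. Its means were 68.5 ± 35.7 FPKM in HFD and 67.1 ± 19.0 in NFD. The log2 fold change, taken between means of log values, was -0.11 ± 0.52 SE (limma adjusted p = 0.991). It has the opposite direction to the FPKM means, so the sign is not resolved. The other 6 tested members of this role averaged 0.742 to 2.64 FPKM: igfbp7, igfbp2b, igfbp5b, igfals, igfbp1a and IGFBP3. Igfals, the acid-labile subunit that holds IGF and its binding protein in a large circulating complex, was at 1.57, 0.415 and 1.51 FPKM in HFD libraries and at 1.22, 2.09 and 2.34 in NFD libraries. HFD library 2 was the lowest in igfals as it was in IGFBP1. Igfbp5b was at 1.29, 1.14 and 1.88 FPKM in HFD libraries and at 2.21, 1.70 and 2.23 in NFD libraries, overlapping only through HFD library 3. Neither passed, with log2 fold changes of -0.58 ± 0.38 SE for igfals (limma adjusted p = 0.919) and -0.41 ± 0.21 SE for igfbp5b (limma adjusted p = 0.892). Of the 6 binding proteins that were not tested, igfbp2a, igfbp6a and igfbp6b were listed at 0 in every library, and the second igfbp3 gene (MSTRG.30495) was at 0.397, 0.485 and 0.498 FPKM in HFD libraries and at 0.582, 0.814 and 0.394 in NFD libraries.

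**Figure D3:**
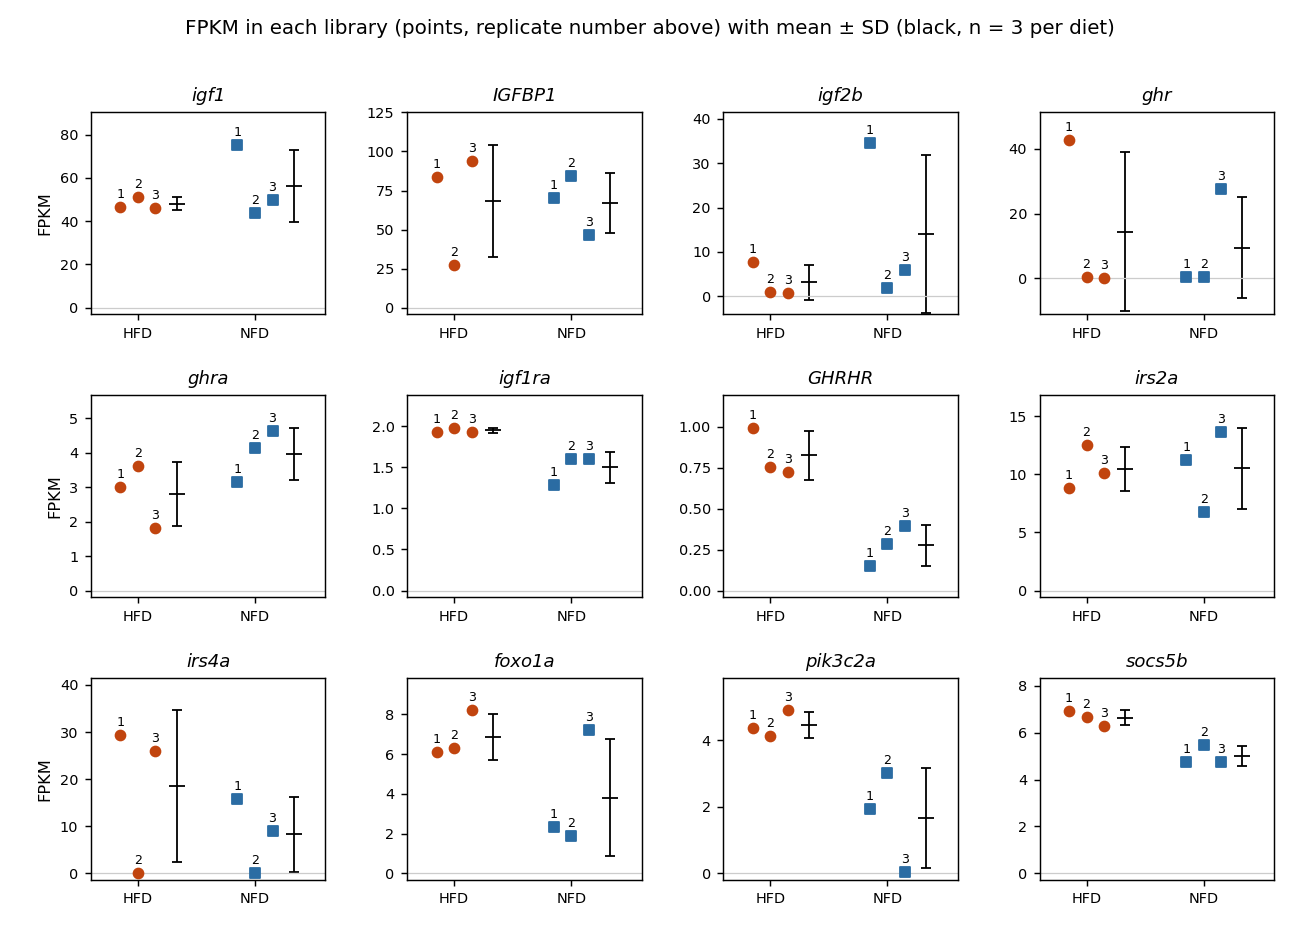
FPKM of 12 members in each library, HFD left and NFD right in each panel, with the replicate number above each point and the mean ± SD in black (n = 3 per diet). Igf1, irs2a and IGFBP1 overlap between diets, GHRHR, igf1ra, pik3c2a and socs5b do not, and ghr and irs4a are high in some libraries of each diet and near 0 in the others.

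Listed values of a growth hormone receptor gene differed widely between libraries of the same diet. Ghr (MSTRG.3812), which transmits the growth hormone signal, was at 42.8, 0.320 and 0.228 FPKM in HFD libraries and at 0.504, 0.377 and 27.6 in NFD libraries. It was high in HFD library 1 and NFD library 3 and low in the other 4, with the highest library 187-fold above the lowest. Of its 2 listed transcripts, ENSONIT00000016111 carried the high values, 42.7 FPKM in HFD library 1 and 27.5 in NFD library 3. The authors numbered their transcripts, and 3 numbers just before those of ghr are in neither deposited table, as are 2 before irs4a and 3 beside igf2b, all of them genes that switch between libraries. Such gaps were common, within or beside the numbers of 82 of the 109 members, igf1 among them. Whether reads of these genes went to transcripts outside the tables was not tested, so the switches are in listed values and need not be in total transcript. The log2 fold change of 0.020 ± 2.03 SE (limma adjusted p = 1.00) has a 95% interval from -4.90 to 4.94. The second growth hormone receptor gene, ghra (MSTRG.11622), varied less than ghr, with the highest library 2.57-fold above the lowest. It was at 3.01, 3.62 and 1.81 FPKM in HFD libraries and at 3.16, 4.14 and 4.64 in NFD libraries. Ghra was thus the higher of the 2 genes in the 4 libraries where ghr was low. For ghra the log2 fold change was -0.46 ± 0.27 SE (limma adjusted p = 0.907).

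GHRHR (MSTRG.3310), named for the pituitary receptor of growth hormone-releasing hormone, was the member with the smallest p. It was at 0.994, 0.755 and 0.724 FPKM in HFD libraries and at 0.148, 0.284 and 0.396 in NFD libraries. All 3 HFD libraries were above all 3 NFD libraries, with every value at or below 1 FPKM. The log2 fold change was 0.78 ± 0.20 SE (limma unadjusted p = 0.00759, adjusted p = 0.708); since it entered the test through its HFD libraries alone, its place among tested genes depends on that difference. Its namesakes ghrhra and ghrhrb were at 0.112 FPKM or less in every library.

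Receptors for insulin and IGF1 were low, and all but igf1rb were even over the libraries. Igf1ra (MSTRG.4230), an IGF1 receptor, was at 1.93, 1.98 and 1.93 FPKM in HFD libraries and at 1.29, 1.61 and 1.6 in NFD libraries. The HFD libraries lay within a narrow range above all NFD libraries. The difference, 0.30 ± 0.16 SE on the log2 scale, did not pass (limma adjusted p = 0.898). Insrb (MSTRG.3243), an insulin receptor, was at 2.84 to 3.88 FPKM in HFD libraries and 2.42 to 2.96 in NFD libraries, which overlap. Igf2r, which in mammals removes IGF2 from the cell surface, overlapped between diets, at 1.35 to 3.27 FPKM in HFD libraries and 1.52 to 3.78 in NFD libraries. The second IGF1 receptor gene, igf1rb (MSTRG.338), was at 0.0241, 0.0945 and 1.12 FPKM in HFD libraries and at 0.810, 0.819 and 0.664 in NFD libraries. Each library listed only 1 of its 2 transcripts above 0: ENSONIT00000003710 in HFD libraries 1 and 2 and NFD library 2, and ENSONIT00000003711 in HFD library 3 and NFD libraries 1 and 3.

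Of the receptor substrates, irs2a was steady and irs4a was not. Irs2a (MSTRG.4761), whose mammalian counterpart carries much of the insulin signal in liver, was at 8.79, 12.5 and 10.2 FPKM in HFD libraries and at 11.2, 6.76 and 13.6 in NFD libraries. The HFD libraries lie inside the NFD range, with means of 10.5 ± 1.87 FPKM in HFD and 10.5 ± 3.48 in NFD. Irs4a (MSTRG.31622), of the same family, was at 29.4, 0.00963 and 26.1 FPKM in HFD libraries and at 15.9, 0 and 8.92 in NFD libraries. Replicate 2 of each diet was at or near 0 while the other 4 libraries were above 8, and the log2 fold change of 0.80 ± 1.99 SE (limma adjusted p = 0.982) has a 95% interval from -4.02 to 5.62. Grb2b, the adaptor that links receptors to RAS, ranged from 3.09 to 14 FPKM in HFD libraries and from 3.47 to 9.92 in NFD libraries. Grb10a, an inhibitory adaptor of the insulin receptor, was at 0.433 to 0.911 FPKM in HFD libraries and at 0.631 to 1.55 in NFD libraries. The remaining 3 genes of this role were not tested, and among them irs2b was listed at 0 throughout.

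Of 8 tested PI3K genes 7 had a higher estimate in HFD, where 50.4% of all tested genes did, and none passed. Pik3c2a (MSTRG.26550), a class II PI3K that acts in vesicle traffic, was at 4.37, 4.14 and 4.90 FPKM in HFD libraries and at 1.95, 3.01 and 0.0521 in NFD libraries. All HFD libraries were above all NFD libraries, and NFD library 3 was far below the rest, with its main transcript, ENSONIT00000019596, listed at 0. The log2 fold change was 1.56 ± 0.67 SE (limma adjusted p = 0.827), and 0.76 without NFD replicate 3. Pik3r5, a regulatory subunit of the PI3K that answers G protein-coupled receptors, was at 2.75 to 3.76 FPKM in HFD libraries and 2.10 to 2.96 in NFD libraries. The catalytic subunit genes of the insulin branch overlapped between diets: pik3cb was at 1.45 to 5.65 FPKM in HFD libraries and 1.62 to 2.79 in NFD libraries, and PIK3CA was at 0.141 to 1.14 in HFD libraries and 0.0623 to 0.515 in NFD libraries. Pik3c3, the autophagy PI3K and the exception in direction, was among the most even members, at 1.54 to 1.66 FPKM in HFD libraries and 1.49 to 1.83 in NFD libraries. Pik3r1, the regulatory subunit best known from insulin signalling, stayed at or below 0.0234 FPKM in every library.

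Below PI3K, ptena and akt3b were the tested members of their role. Ptena (MSTRG.1225), the phosphatase that undoes the PI3K step, was at 7.10, 5.27 and 7.57 FPKM in HFD libraries and at 6.16, 6.06 and 8.03 in NFD libraries. The diets overlap in part, HFD library 2 being the lowest and NFD library 3 the highest, with a log2 fold change of -0.025 ± 0.22 SE (limma adjusted p = 0.998) and a 95% interval from -0.55 to 0.50. Akt3b was at 1.46 to 1.87 FPKM in HFD libraries and 1.01 to 3.0 in NFD libraries. The genes akt1, AKT2 and akt3a, the kinase pdpk1b that activates AKT and the insulin receptor phosphatase ptpn1 missed the filter, with akt1 at or below 0.0106 FPKM in every library.

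Foxo1a, target of AKT and activator of glucose release genes, was high in 4 of 6 libraries. It was at 6.09, 6.33 and 8.20 FPKM in HFD libraries and at 2.35, 1.86 and 7.2 in NFD libraries. All 3 HFD libraries were above NFD libraries 1 and 2, and NFD library 3 lay within the HFD range. The means were 6.87 ± 1.15 FPKM in HFD and 3.81 ± 2.95 in NFD, a log2 fold change of 0.97 ± 0.46 SE (limma adjusted p = 0.876). Over all alternatives it ran from 0.64 to 1.5 (limma adjusted p 0.492 to 1.00). The value without NFD replicate 3, the NFD library within the HFD range, was 1.5 (limma adjusted p = 0.492). Leaving out the highest NFD library had to raise this difference, so the larger value depends on the library left out. Foxo3b (MSTRG.17476), its relative, was at 7.39, 5.61 and 5.90 FPKM in HFD libraries and at 5.16, 8.58 and 5.05 in NFD libraries, which overlap, with a log2 fold change of 0.038 ± 0.26 SE (limma adjusted p = 0.996). Of the GSK3 genes, whose kinase restrains glycogen synthesis, gsk3aa was at 2.69 to 3.0 FPKM in HFD libraries and 2.46 to 3.46 in NFD libraries, and gsk3ab at 1.16 to 3.90 in HFD libraries and 3.53 to 4.21 in NFD libraries.

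The mTOR branch was measured mainly through sesn1 and rictora. Sesn1 (MSTRG.17480), a stress-induced brake on mTOR complex 1, was at 3.30, 3.86 and 8.14 FPKM in HFD libraries and at 3.50, 5.42 and 6.29 in NFD libraries. The highest and the lowest library were both HFD, and the log2 fold change was -0.056 ± 0.38 SE (limma adjusted p = 0.996). Rictora, the defining subunit of mTOR complex 2, was at 3.66 to 4.27 FPKM in HFD libraries and 3.08 to 4.22 in NFD libraries. Mtor itself was at or below 0.0208 FPKM in every library, and rptor, deptor, akt1s1, tsc1a, tsc1b and sesn2 missed the filter. Mtor and akt1 are genes that nearly every cell uses. As for ghr, transcripts may be missing from the tables: the numbers run up to 78588 and neither deposited table holds 25415 of these numbers; the part of such missing transcripts in the low levels was not tested.

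Kinases at the end of the pathway overlapped between diets. Rps6ka5 (MSTRG.7231), a kinase of the RSK family that phosphorylates histones and CREB, was at 3.61, 4.07 and 3.42 FPKM in HFD libraries and at 2.58, 3.07 and 3.72 in NFD libraries, with overlap and a log2 fold change of 0.22 ± 0.19 SE (limma adjusted p = 0.919). The ribosomal S6 kinase genes rps6kb1a and rps6kb1b, the direct targets of mTOR complex 1, averaged 2.18 ± 0.686 and 2.98 ± 1.53 FPKM in HFD and 2.19 ± 0.0356 and 2.73 ± 1.09 FPKM in NFD. All 5 tested members of this role had log2 fold changes between -0.069 and 0.22. Rps6kal (MSTRG.27408), 1 of the 5, is a sum that includes transcripts named hdx, another gene. In HFD library 2 its own transcript, ENSONIT00000022280, made up 0.210 of the summed 0.441 FPKM. Of the AMPK subunits, which sense low energy and restrain fat synthesis, PRKAB2 (MSTRG.1015) had the highest mean over the libraries. It was at 1.79, 2.25 and 1.64 FPKM in HFD libraries and at 1.68, 2.49 and 1.22 in NFD libraries. These values overlap, with a log2 fold change of 0.089 ± 0.25 SE (limma adjusted p = 0.982). Prkab1a, which was not tested, was at 0.0569, 0.0498 and 3.45 FPKM in HFD libraries and at 0.352, 3.65 and 0.0804 in NFD libraries. It was above PRKAB2 in HFD library 3 and NFD library 2. The catalytic subunit prkaa1 was at 0.905, 0.771 and 0.948 FPKM in HFD libraries and at 1.25, 0.101 and 0.0327 in NFD libraries. It was near 1 FPKM in 4 libraries and low in NFD libraries 2 and 3, with a log2 fold change of 0.74 ± 0.46 SE (limma adjusted p = 0.919). Over all alternatives the fold change of prkaa1 ran from 0.42 to 1.56, always short of the threshold. It was 1.28 without NFD replicate 1, the only NFD library at or above 0.5 FPKM. In that fit prkaa1 entered through HFD libraries alone, so the larger difference depends on the library left out.

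All 6 tested SOCS and CISH genes had a higher estimate in HFD, where 50.4% of all tested genes did, and none passed. The log2 fold changes ran from 0.014 ± 0.21 SE for socs6a, whose sign is not resolved, to 0.48 ± 0.53 SE for socs1b. Socs5b (MSTRG.20928), an inhibitor of cytokine and growth factor receptors and the most abundant of them, was at 6.93, 6.67 and 6.29 FPKM in HFD libraries and at 4.74, 5.49 and 4.75 in NFD libraries. All 3 HFD libraries were above all 3 NFD libraries, by a mean of 6.63 ± 0.321 FPKM against 4.99 ± 0.432. The log2 fold change was 0.38 ± 0.16 SE (limma unadjusted p = 0.0580, adjusted p = 0.831). CISH, a target of STAT5 that reports growth hormone action in mammals, was at 2.07, 2.51 and 1.97 FPKM in HFD libraries and at 1.65, 2.25 and 1.08 in NFD libraries, which overlap. Socs1, socs1b, socs6a and socs9 also overlapped between diets. Socs2, the inhibitor that growth hormone induces in mammals, was at 0.226 to 0.301 FPKM in HFD libraries and 0.215 to 0.293 in NFD libraries. It was not tested, nor were socs3, socs3b, socs4, socs7 and the second cish gene (MSTRG.14997). Apart from socs2, these untested genes had lower means in HFD than in NFD, all at or below 0.242 FPKM in every library. The shared direction of the tested genes therefore does not extend to them.

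Among the genes matched by name alone, tsc22d3 had the difference with the smallest p. Tsc22d3 (MSTRG.9735), a leucine zipper protein that glucocorticoids induce in mammals and no part of the TSC complex, was at 23.3, 18.3 and 30.2 FPKM in HFD libraries and at 34.9, 46.6 and 41.9 in NFD libraries. Every HFD library was below every NFD library, with means of 23.9 ± 6.02 FPKM in HFD and 41.1 ± 5.90 in NFD. The log2 fold change was -0.79 ± 0.25 SE (limma unadjusted p = 0.0194, adjusted p = 0.746). TSC22D2 was also without overlap, at 0.605 to 0.636 FPKM in HFD libraries and 0.669 to 0.953 in NFD libraries. The RNA-binding proteins igf2bp2b and igf2bp3 overlapped between diets.

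Where the files name duplicate genes of this pathway, 1 copy was often above the other in every library of both diets. Of 17 such pairs, set by name with the values known, 11 had levels that did not overlap over the 6 libraries. Insrb was at 2.42 to 3.88 FPKM and insra at 0.187 to 0.372. CISH ranged from 1.08 to 2.51 FPKM and cish from 0.0325 to 0.242, while pik3r5 stayed between 2.10 and 3.76 FPKM and its namesake PIK3R5 (MSTRG.7439) between 0.274 and 0.892. For irs2b and igfbp2a every library was listed at 0, beside 6.76 to 13.6 FPKM for irs2a and 1.58 to 2.61 FPKM for igfbp2b. Both copies were present at overlapping levels for socs1 and socs1b, gsk3ab and gsk3aa, and rps6kb1b and rps6kb1a. Reads of near-identical copies may have been divided between them, so the split within a pair is uncertain. As for ghr, missing transcript numbers lie beside some lower copies, with 3 before insra and 1 on either side of irs2b, but not beside igfbp2a or cish. How alike the copies are, and the part of missing transcripts in their levels, was not tested.

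**Figure D4:**
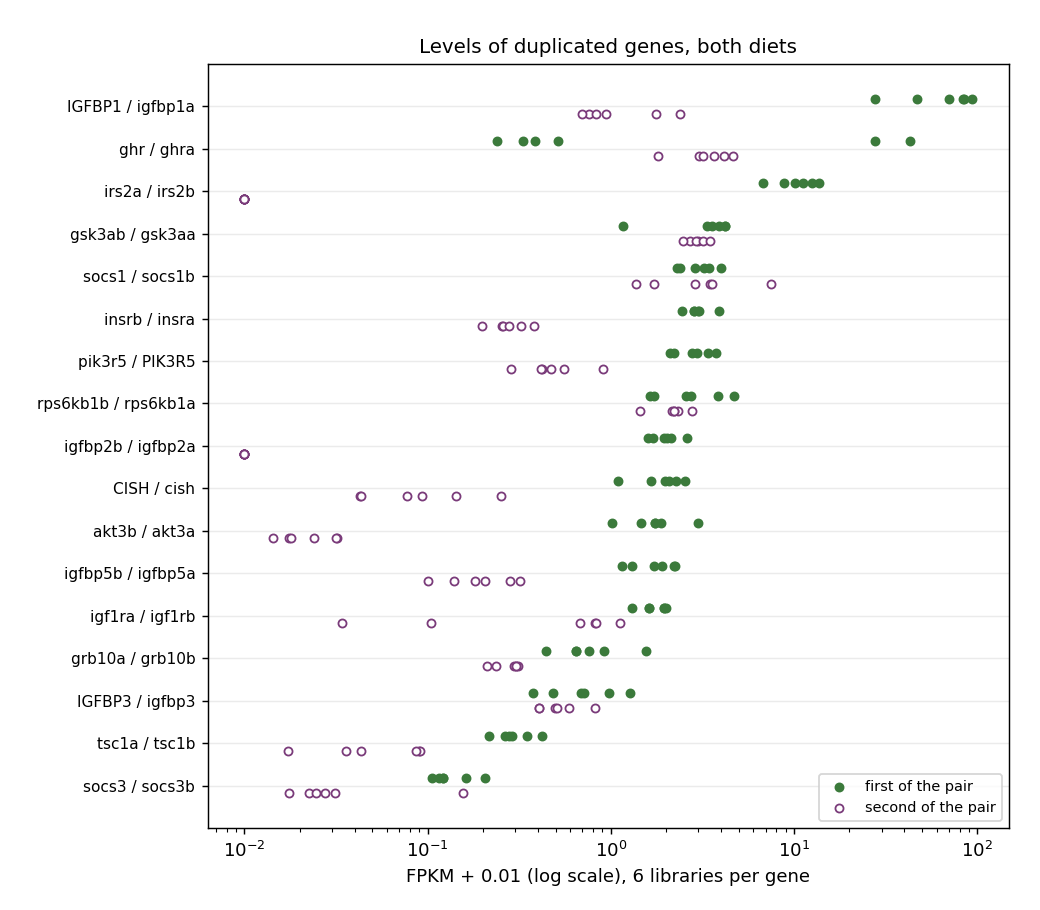
FPKM + 0.01 on a log scale of both genes of 17 duplicate pairs in all 6 libraries, the first gene filled and the second open. The copies are apart without overlap in 11 pairs, among them insrb and insra, and ghr spreads to both sides of ghra.

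Some binding protein genes are neighbours in the genome. In the RefSeq gene table of assembly O_niloticus_UMD_NMBU, used for gene order only, 0 coding genes lie between igfbp1a and igfbp3 and between igfbp2a and igfbp5a, and in the files the numbers of IGFBP1 (MSTRG.851) and IGFBP3 (MSTRG.853) nearly follow each other. Igfbp5b and igfbp2b were not both found on the same chromosome there. IGFBP1 averaged 67.8 FPKM over the 6 libraries and IGFBP3 0.742, but that these 2 are neighbours rests on their numbers alone. Igfbp1a averaged 1.22 FPKM and its neighbour igfbp3 0.528, with overlapping libraries. Igfbp2a was at 0 throughout and its neighbour igfbp5a averaged 0.194.

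The share of members with a wide spread over the 6 libraries was near that of the whole table. In 6 members the highest library was 20-fold or more above the lowest (igf2b, ghr, igf1rb, irs4a, pik3c2a and prkaa1), 10.9% of those tested against 9.69% of all tested genes. In 24 members, 43.6% against 38.3% of all genes, it was less than 2-fold above. HFD library 2 held the lowest value of 12 members and NFD library 1 that of 13, or 21.8% and 23.6%, where over all genes these libraries held the lowest value of 20.8% and 28.5%. The highest values were placed less like those of the table: HFD library 3 held the highest value of 23.6% of members against 11.5% of all genes, and NFD library 2 that of 12.7% of members against 23.6% of all genes.

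Genes of the pathway outside the name pattern had 0 calls as well. A list of 69 further names (JAK and STAT factors, RAS and MAP kinases, lamtor and RAG proteins, and genes under insulin or FOXO control) matched 75 genes, of which 44 were tested; 21 were higher and 23 lower in HFD, 0 passed and 2 had an unadjusted p under 0.05, both higher in HFD. That is 4.55% of those tested, against 6.02% of all tested genes in either direction and 2.67% higher in HFD. Phlpp1, a phosphatase that inactivates AKT, was at 0.798, 0.754 and 0.825 FPKM in HFD libraries and at 0.214, 0.20 and 0.237 in NFD libraries. Its groups are far apart and each is narrow, but it too entered the test through HFD libraries alone; the log2 fold change was 0.85 ± 0.16 SE (limma adjusted p = 0.417). Glucose-6-phosphatase g6pca.1, which FOXO1 raises in mammals, was at 24.9, 28.6 and 21.1 FPKM in HFD libraries and at 11.7, 7.25 and 13.4 in NFD libraries, without overlap (limma adjusted p = 0.585), whereas its copy g6pca.2 overlapped, at 13.7 to 24.8 FPKM in HFD libraries and 7.76 to 30.8 in NFD libraries. Pck1, the cytosolic enzyme of glucose synthesis that insulin represses, was not tested, with 0.408, 7.01 and 1.19 FPKM in HFD libraries and 0, 0.265 and 0.175 in NFD libraries.

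Transcripts of the hormones themselves were near 0. Growth hormone, gh1, was listed at 0 in every library. Insulin, ins (MSTRG.34453), was at 0.172, 0.0379 and 0.540 FPKM in HFD libraries and had 0 in each NFD library, while insb had 0 throughout. Of the endocrine pancreas markers looked up, 8 were found by name, ins and insb among them. These 8 summed to 1.82, 3.75 and 7.04 FPKM in HFD libraries and to 1.03, 0.960 and 1.53 in NFD libraries, with 2 of the 8 at 0 in every library. Only 1 of the 8 passed the filter, and gcgb alone was at 4.23 FPKM in HFD library 3. Ins, gcgb and nkx2.2a did not overlap between diets, whereas pdx1, pcsk1 and isl1 did. The part of islet cells in these values was not tested.

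The lncRNA table held 1 transcript with the gene number of a member. MSTRG.34375.1, at igfbp7, was at 2.55, 1.63 and 1.67 FPKM in HFD libraries and at 1.85, 1.61 and 1.96 in NFD libraries, which overlap. Its log2 fold change, here of FPKM + 0.1, was 0.076 ± 0.38 SE (limma adjusted p = 0.999); of all 18368 lncRNA transcripts tested, 0.00544% passed, 4.3% had an unadjusted p under 0.05 and 9.81% did not overlap between diets. Igfbp7, a secreted relative of the IGF binding proteins, was at 2.83, 4.62 and 2.13 FPKM in HFD libraries and at 1.58, 2.34 and 2.36 in NFD libraries, also with overlap.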

How the data were processed

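Both tables hold FPKM that the authors computed and deposited, per the file headers. Tools listed without their roles are edgeR 3.22.3, StringTie 1.3.0, HISAT2 2.0.4, FastQC 0.10.1 and cutadapt 1.10, per the submitters' processing notes. Genome build and strand setting were not given in the sources used here. In both tables the value 0.0001 was taken as no estimate and set to 0. Transcripts were summed per gene ID. Log2(FPKM + 0.5) of genes with at least 0.5 FPKM in 3 libraries entered limma 3.58.1 (R 4.3.3; lmFit and eBayes with a variance trend), diet being the only term, two-sided, with Benjamini-Hochberg adjustment over all genes and a threshold of 0.05. lncRNA transcripts with at least 0.1 FPKM in 3 libraries were fitted apart on log2(FPKM + 0.1). FPKM is no count, so no count model was used; depth is unknown and no counting interval is given. The fits were tested on simulated data, where recovery was required only of changes far larger than those of most members. That check therefore says little of small differences. Members and lists were chosen with earlier results of these data known. Genes given library by library were set by a rule: an adjusted, or else an unadjusted, p under 0.05; or diets without overlap and a mean of at least 1 FPKM in a diet; or the highest mean of their role. Outside the members, pathway genes at an unadjusted p under 0.05 were named. All other genes given library by library, such as igf2b, ghra, irs2a and foxo1a, and the 17 duplicate pairs were chosen after their values were seen. Alternatives covered the pseudocount, filter, scaling, variance prior, summing of transcripts, replicate block and the omission of each library. Figures were drawn with matplotlib 3.10.9.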

Additional observations from a re-analysis of the deposited data

How the results depend on the processing

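No signalling gene passed an adjusted p of 0.05 under any of the 11 alternatives or without any library; the count over all genes was 0 to 4 with a library left out, 4 being without NFD replicate 2. At an unadjusted p under 0.05, 946 of 21043 genes were found with no filter, against 554 of 9204. For members that count was 0 to 4 with a library left out (0 without HFD replicate 1, 1 without HFD replicate 2, 4 without HFD replicate 3 or NFD replicate 3), 1 with a filter of 1 FPKM and, chosen after the data were seen, 1 without the genes matched by name alone. The members' median log2 fold change, 0.051, ran from -0.0021 without HFD replicate 1 to 0.13 without HFD replicate 2. The replicate number did not pair the libraries (correlations of deviations -0.0052, -0.20 and -0.11 for numbers 1, 2 and 3, and no library was closest to its own number); with the replicate block 3 members had an unadjusted p under 0.05 and 0 passed. Of 22 genes followed through all settings, 14 kept their direction; 15 values could not be had because a gene missed the filter, as GHRHR did without any 1 HFD library. Others crossed 0 when a library was left out, ranging from -0.10 to 0.30 for PRKAB2, -0.084 to 0.27 for foxo3b, -0.12 to 0.12 for ptena, -0.43 to 0.44 for IGFBP1, -0.85 to 1.03 for ghr, -0.35 to 0.037 for igf1, -0.42 to 0.17 for sesn1 and -0.75 to 2.73 for irs4a. Ptena also turned to 0.027 with equal summed FPKM and to 0.00089 with the highest transcript, and ghr to -0.15 with a pseudocount of 0.1; the cause was not tested. Depth in reads is unknown, which limits what can be said of genes below 1 FPKM.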
